A study of Homo sapiens with 5 samples.

Results

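Regions of RNA that lay in annotated repeat elements on their own strand were examined in 5 CLIP-Seq libraries of the human line HEK-293, which derives from embryonic kidney. A region was a member if its same-strand class was repeat element and it lay on chromosomes 1 to 22 or X. Regions on chromosome 21 that start between 8000000 and 9100000, where the rRNA gene arrays lie, and regions whose same-strand RNA type names rRNA were left out. Of 3147 listed regions, 2610 passed these exclusions (kept regions) and 495 of those were in repeat elements. Members were grouped by their deposited repeat type, with no measured value used. The files give a type (SINE, LINE and so on) and no name of a single repeat.

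In CLIP-Seq, ultraviolet light joins RNA to protein, and the RNA pulled down with the protein is sequenced. The pull-down here was on beads that bind GFP. Experiment 1 held 1 library of cells transfected with GFP and 1 with GFP-(GR)50 (replicate 1), a fusion of GFP to a glycine-arginine dipeptide repeat. Experiment 2 held 1 library each of untransfected cells, cells with GFP-(GP)10, a fusion to a glycine-proline repeat, and cells with GFP-(GR)50 (replicate 2). The numbers in the names are dipeptide repeats, 50 in GFP-(GR)50 and 10 in GFP-(GP)10. These fusions thus differ in both dipeptide and length, whose parts cannot be told apart. Both dipeptides are made from the expanded C9ORF72 repeat of ALS and FTD. All 5 libraries came from the same line, crosslinked at 100 mJ/cm2 and 254 nm, and the fusions were introduced by lipofection, so they model a transfected protein and not one made from the patient repeat. RNase I was used at 0.04 units/ml in experiment 1 and at 0.02 units/ml in experiment 2. A list of bound regions measures no marker of cell type, and the line was not checked.

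Repeat elements make up much of the human genome. SINEs, the Alu family foremost, and LINEs are copies left by retrotransposition. LTR elements are remains of retroviruses, and DNA elements are old cut-and-paste transposons. Simple repeats are short units in tandem, and low-complexity stretches are rich in 1 or 2 bases. Most copies reach RNA as passengers in introns. An Alu ends in a run of A, so the opposite strand of that end reads as a run of U.

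Sequence could be shown for a pair of members only, those that overlap a window around a gene start in the RefSeq table (GRCh38.p14, the same primary assembly as the files' hg38). Both are shown as examples of what a transposon-typed and a low-complexity region contain, read 5′ to 3′ on the strand of the region. The first is a DNA-type region of the untransfected list with 5 reads, on the minus strand at chr9:33132270-33132324, in an intron of B4GALT1, a galactosyltransferase, by the files' annotation, and in the RefSeq start window of the uncharacterised gene LOC124902141. The second is the only low-complexity region of a GFP-(GR)50 list, with 5.25 reads in replicate 2, on the plus strand at chr15:92883118-92883186. It lies in the long noncoding RNA that the files call LINC01578 and RefSeq now calls CHASERR.

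B4GALT1 region: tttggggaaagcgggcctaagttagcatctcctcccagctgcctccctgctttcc
CHASERR region: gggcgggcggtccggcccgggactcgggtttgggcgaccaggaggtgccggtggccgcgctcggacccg

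The CHASERR stretch has 69 bases, 81.2% of them G or C and 49.3% G. The B4GALT1 stretch has 55 bases with 58.2% G or C. No source used here says whether coordinates start at 0 or 1, so each end may be off by 1 base.

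Nearly all members came from experiment 2, with 488 against 7 in experiment 1. The GFP list had 6 members among 383 kept regions (1.57%, exact Clopper-Pearson 95% interval 0.577 to 3.38). GFP-(GR)50 replicate 1 had 1 among 63 (1.59%, 0.0402 to 8.53). The untransfected list had 324 of 1233 (26.3%, 23.8 to 28.8), GFP-(GP)10 had 44 of 258 (17.1%, 12.7 to 22.2), and GFP-(GR)50 replicate 2 had 120 of 673 (17.8%, 15.0 to 20.9). The GFP-(GR)50 libraries therefore stood far apart, with a mean of 9.71% ± 11.5 (SD, n = 2). The untransfected list was the highest of the 5 and the interval of neither other library of experiment 2 reached it. Experiment and RNase I amount changed together, so their parts in the gap between experiments cannot be told apart.

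**Figure D1:**
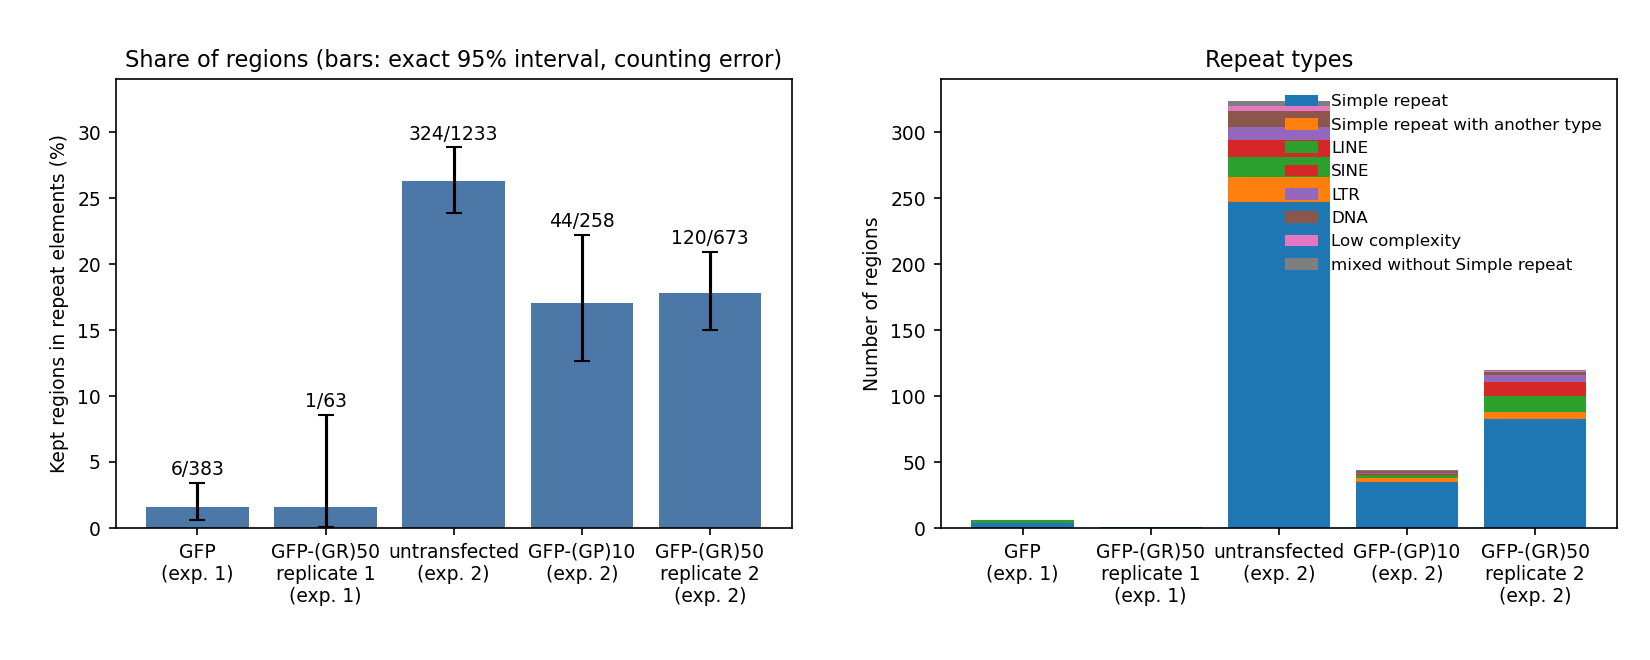
Left, percent of kept regions that lie in repeat elements in each library, with exact 95% intervals and the counts above each bar. Right, the number of these regions by repeat type. The untransfected bar is the highest at 26.3%, and simple repeats fill most of every bar of experiment 2.

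All intervals cover counting error alone. No list has a region under 5 reads, so a locus without a region is not a locus with 0 reads. The fewest listed reads were the 7468 of GFP-(GP)10 and the most the 134222 of GFP-(GR)50 replicate 2. Total library depths were not used here. Each control is 1 library, so a test below compares the regions of 2 lists and not conditions.

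The first question was whether poly-GR lists hold more or fewer repeat regions than the background lists of the same experiment. GFP-(GR)50 replicate 2 had a smaller share than untransfected cells, and almost the same share as GFP-(GP)10. Shares of the classes of a list trade off, so this share moves with those of the other classes. The difference from untransfected cells was -8.45 percentage points (95% interval -12.2 to -4.56; adjusted p = 7.96e-05 by Fisher's exact test, two-sided, with Benjamini-Hochberg adjustment over 3 comparisons). The difference from GFP-(GP)10 was 0.776 points (-4.97 to 5.90; adjusted exact p = 1). In experiment 1 the difference between GFP-(GR)50 replicate 1 and GFP was 0.0207 points (-2.21 to 6.94; adjusted exact p = 1), on 7 regions in all. When simple repeats were left out of both lists, a setting chosen after seeing the data, the first difference was -0.524 points (adjusted exact p = 0.737), so the call rested on simple repeats. With all 3 controls pooled, which mixes the experiments, it was -2.13 points (adjusted exact p = 0.256).

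Reads too put untransfected cells highest. Members held 28.7% of the reads of kept regions in untransfected cells (2834 of 9889 reads), 15.4% with GFP-(GP)10 (301 of 1952) and 13.7% in GFP-(GR)50 replicate 2 (875 of 6369). They held 0.342% in GFP and 1.06% in GFP-(GR)50 replicate 1. Of all listed reads, rRNA included, members held 12.6% in untransfected cells and 0.652% in GFP-(GR)50 replicate 2. These shares were not tested, since scaled reads with several positions are not independent.

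Member reads were mostly placed at a single position. Reads that map to one place made up 89.1% of member reads in untransfected cells, 92.7% with GFP-(GP)10 and 92.2% in GFP-(GR)50 replicate 2, against 80.9%, 70.7% and 71.8% in the other kept regions of these lists. Only 1 member in untransfected cells and 2 in GFP-(GR)50 replicate 2 had no such read. No 2 members of a list lay within 1 kb of each other. The members thus lie at separate places, and few rest on reads shared among copies of a family.

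Member regions were short and shallow, as were the other kept regions. The median width was 50 bp in untransfected cells, 49 bp with GFP-(GP)10 and 48 bp in GFP-(GR)50 replicate 2, and 51, 51 and 53 bp in other kept regions. Median reads were 7, 6.25 and 6.03, with highest values of 36.0, 10.6 and 22. In other kept regions the median reads were 6.07, 6 and 6. In untransfected cells 81 of 324 members (25%) had at least 10 reads, against 13.4% of other kept regions. In GFP-(GR)50 replicate 2 it was 17 of 120 (14.2%) against 21.3%, and with GFP-(GP)10 5 of 44 (11.4%) against 14.5%. Reads per kb were higher in members than in other kept regions in each of these lists. They were 167 against 135 in untransfected cells, 142 against 125 with GFP-(GP)10 and 145 against 119 in GFP-(GR)50 replicate 2. These measures of depth differ in direction for GFP-(GP)10 and GFP-(GR)50 replicate 2 and were not tested.

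By type, simple repeats led every list of experiment 2. They were the only type in 247 of 324 members (76.2%) in untransfected cells, 35 of 44 (79.5%) with GFP-(GP)10 and 83 of 120 (69.2%) in GFP-(GR)50 replicate 2. As a share of kept regions this is 13.6% with GFP-(GP)10 and 12.3% in GFP-(GR)50 replicate 2, both below untransfected cells with 247 of 1233. The difference between GFP-(GR)50 replicate 2 and untransfected cells was -7.70 points (-11.0 to -4.25; adjusted p = 0.000114 by the same exact test over 57 class tests). It was the only 1 of 8 repeat types to pass there, beside 33.3% of all 21 classes tested in that comparison. Regions classed as no feature (-10.2 points) and protein-coding intron (-6.76) also passed with lower shares. Protein-coding exon (10.7), tRNA (5.23), 7SK RNA (3.57) and snoRNA (1.53) passed with higher shares. The no-feature and intron classes also hold regions with a simple repeat annotated on the opposite strand. Of no-feature regions, 84 of 313 (untransfected) against 14 of 102 (GFP-(GR)50 replicate 2) were of this kind. For introns the counts were 46 of 426 against 10 of 187. Whether the no-feature and intron shares stay lower without such regions was not tested. With all controls pooled, which mixes the experiments, the simple-repeat difference did not pass (-2.93 points, adjusted exact p = 0.186). Against GFP-(GP)10 the simple-repeat difference was -1.23 points (-6.47 to 3.31; adjusted exact p = 0.920) and no repeat type passed, beside 14.3% of 21 classes. In experiment 1 neither LINE nor simple repeats passed, beside 26.7% of 15 classes.

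Transposon types were few in every list. LINE was the type of 15 members in untransfected cells, 2 with GFP-(GP)10 and 12 in GFP-(GR)50 replicate 2, and SINE that of 13, 1 and 11. As shares of kept regions, LINE stood at 1.22%, 0.775% and 1.78% and SINE at 1.05%, 0.388% and 1.63% in that order. The LINE difference between GFP-(GR)50 replicate 2 and untransfected cells was 0.567 points (-0.523 to 1.96) and the SINE difference 0.580 points (-0.453 to 1.92). Neither passed (adjusted exact p = 0.662 and 0.657), and both turned negative, to -0.985 and -1.48 points, among regions with at least 10 reads. LTR was the type of 10, 1 and 5 members and DNA that of 12, 1 and 2. Low complexity had 4, 0 and 1. Simple repeats joined to another type had 19, 3 and 5, and other mixed types 4, 1 and 1. No member carried a satellite annotation, which is also on the same strand in 0 of the 3147 listed regions.

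The strand of the members follows the annotation. All 556 listed regions with a simple repeat on the same strand lay on the plus strand, and all 226 with a simple repeat on the opposite strand lay on the minus strand. Repeat annotations often name a simple repeat by the unit read on the plus strand and give it that strand. In these files a simple repeat thus brings a region into the repeat class only on the plus strand. Members lay on the plus strand in 281 of 324 cases (86.7%) in untransfected cells, 40 of 44 (90.9%) with GFP-(GP)10 and 98 of 120 (81.7%) in GFP-(GR)50 replicate 2. Kept regions outside repeats leaned the other way, with 35.4%, 40.7% and 42.1% on the plus strand. All kept regions together were nearly even, at 48.9%, 49.2% and 49.2%.

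The minus-strand counterparts stand in other classes. In untransfected cells 160 kept regions on the minus strand had a simple repeat annotated opposite. Of these, 84 were classed as no feature, 46 as protein-coding intron, 14 as lncRNA, 7 as exon and 9 as repeat element through another type. GFP-(GP)10 had 14 such regions and GFP-(GR)50 replicate 2 had 40, of which 14 were classed as no feature and 10 as intron. Their median width in the 3 lists was 50, 49 and 48.5 bp, much like that of the members.

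Counted on either strand, a measure chosen after seeing the data, 436 of 1233 kept regions (35.4%) in untransfected cells lay at a simple repeat. The value was 55 of 258 (21.3%) with GFP-(GP)10 and 135 of 673 (20.1%) in GFP-(GR)50 replicate 2. The difference between GFP-(GR)50 replicate 2 and untransfected cells was then -15.3 points (-19.2 to -11.2; adjusted exact p = 4.05e-12, Fisher's exact test), larger than for the plus-strand annotation. Against GFP-(GP)10 it was -1.26 points (-7.36 to 4.31; adjusted exact p = 0.716). Among plus-strand kept regions alone, members took 46.6% in untransfected cells, 31.5% with GFP-(GP)10 and 29.6% in GFP-(GR)50 replicate 2.

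**Figure D2:**
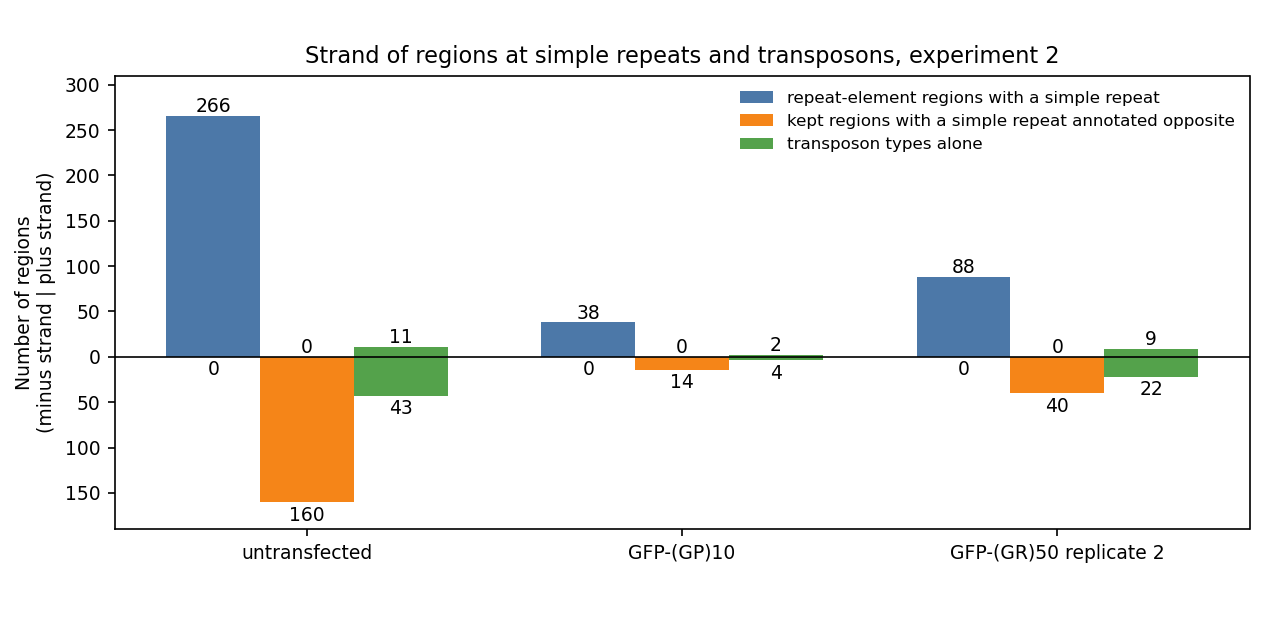
Number of regions on the plus strand (above 0) and minus strand (below 0) in the lists of experiment 2. Blue bars are repeat-element regions with a simple repeat, orange bars kept regions with a simple repeat annotated opposite (9, 1 and 4 of them also members), and green bars members typed as transposons alone. Blue bars have no minus-strand part and orange bars no plus-strand part.

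Members typed as transposons alone (LINE, SINE, LTR, DNA or a mix of these) lay mostly on the minus strand, with 43 of 54 in untransfected cells, 4 of 6 with GFP-(GP)10 and 22 of 31 in GFP-(GR)50 replicate 2. All 27 members in which a simple repeat joined another type lay on the plus strand. A plus-strand transposon region that holds a simple repeat is thus not counted among transposons alone. On the minus strand such regions stay in, with 9, 1 and 4 that have a simple repeat annotated opposite. The lean to the minus strand is therefore set in part by the annotation. Kept regions outside repeats leaned that way too, with 35.4%, 40.7% and 42.1% on the plus strand.

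Many simple repeats lay opposite a SINE. The opposite strand carried a SINE in 99 of 247 simple-repeat members (40.1%) in untransfected cells, 20 of 35 (57.1%) with GFP-(GP)10 and 27 of 83 (32.5%) in GFP-(GR)50 replicate 2. Over all members the shares were 38.3%, 54.5% and 27.5%, and in other kept regions 61.2%, 38.8% and 32.7%. The members' share was below that of the other regions in untransfected cells and GFP-(GR)50 replicate 2 and above it with GFP-(GP)10, and these differences were not tested.

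Host genes were recorded on the same strand for 147 of 324 members (45.4%) in untransfected cells, 19 of 44 (43.2%) with GFP-(GP)10 and 57 of 120 (47.5%) in GFP-(GR)50 replicate 2. Introns of protein-coding genes held 122, 16 and 46 of them. A further 65, 11 and 24 members had a gene on the opposite strand alone, and 112, 14 and 39 had no gene on either strand. The makeup by host was close in the 3 lists, at 34.6%, 31.8% and 32.5% without a gene.

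The next comparison asks whether the poly-GR members are places that control lists also hold. In GFP-(GR)50 replicate 2, 54 of 120 members (45.0%) overlapped a region of the untransfected list by at least 1 bp on the same strand, against 105 of 553 other kept regions (19.0%). The remaining 66 members had no region of either control. Without an overlapping region were 66 members against untransfected cells, where the share over all 673 kept regions was 76.4%. Against GFP-(GP)10 it was 102 members, with 87.2% over all kept regions, and against both controls 66 members, with 72.1%. The members' share without a control region, 55.0%, thus lay below that of the whole list. In experiment 1 the single member of GFP-(GR)50 replicate 1 had no GFP region, where the share over its 63 kept regions was 50.8%.

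In the other direction, 55 of 324 untransfected members (17.0%) overlapped a region of GFP-(GR)50 replicate 2, against 12.9% of all kept regions, and 33 (10.2%) a region of GFP-(GP)10, against 6.65%. Of the GFP-(GP)10 members, 33 of 44 (75.0%) overlapped an untransfected region, against 50 of 214 other kept regions (23.4%), and 18 (40.9%) overlapped GFP-(GR)50 replicate 2, against 33.3% of all its kept regions. Untransfected members with many reads recurred most. Of the 20 highest, with at least 17.9 reads, 15 had a member in GFP-(GR)50 replicate 2 and 14 with GFP-(GP)10. Of the 100 highest it was 38 and 28. The same count was not made for other kept regions, so whether this is particular to members was not tested. No member overlapped between the GFP-(GR)50 replicates, and no member of experiment 1 lay on a member of experiment 2. Replicate 1 held 1 member and experiment 1 held 7, too few to show how often members recur. The same counts over all kept regions are not given here.

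Merged over the lists of experiment 2, members formed 401 loci. Of these, 255 were in untransfected cells alone, 66 in GFP-(GR)50 replicate 2 alone and 11 with GFP-(GP)10 alone. Shared loci were 36 in untransfected cells and GFP-(GR)50 replicate 2, 15 in both controls, and 18 in all 3 lists. Only members were merged, so a region of another class can overlap a locus counted as alone. Over all kept regions of untransfected cells, 87.1% had no region of GFP-(GR)50 replicate 2 and 93.3% none of GFP-(GP)10. In GFP-(GR)50 replicate 2, 72.1% had none of either control, and with GFP-(GP)10 67.8% had no untransfected region. At all 18 loci of the 3 lists the untransfected library had the most unscaled reads. Per read of kept regions GFP-(GP)10 was highest at 17 of the 18 and GFP-(GR)50 replicate 2 lowest at 14, so the order turned with the total. The reads given for single loci here are unscaled. Reads of untransfected cells ran from 9.2 to 36.0 with a median of 18.4, those of GFP-(GP)10 from 5 to 10.6 with a median of 7.6, and those of GFP-(GR)50 replicate 2 from 5.5 to 22 with a median of 8.46.

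The locus with most reads lay in an intron of OXSR1, a kinase of the osmotic stress response, opposite a SINE (chromosome 3, 38184904 to 38184963 over the lists). It had 36.0 reads in untransfected cells, 7 with GFP-(GP)10 and 22 in GFP-(GR)50 replicate 2. A simple repeat without a gene on chromosome 7 (6885527 to 6885584) had 18.5, 6 and 17 reads in that order. An intron of LSM3, a subunit of the ring of Sm-like proteins on U6 snRNA, had 17.9, 9.83 and 12.4 reads. At these loci the unscaled reads of GFP-(GR)50 replicate 2 lay between the controls.

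A FOCAD intron had 27, 7 and 10.3 reads in untransfected cells, GFP-(GP)10 and GFP-(GR)50 replicate 2. Opposite SLC26A3, a chloride-bicarbonate exchanger, the reads were 22.8, 10.3 and 11.8, and opposite MAP3K15, a stress-kinase gene, 29.9, 10.6 and 6.71. At the MAP3K15 locus GFP-(GR)50 replicate 2 was the lowest of the 3 libraries. POU2F1, which encodes the transcription factor Oct-1, had 30.2 reads in untransfected cells, 10.5 with GFP-(GP)10, and was not listed for GFP-(GR)50 replicate 2. A simple repeat in an intron of TEAD1, a transcription factor of the Hippo pathway, had 28.1 in untransfected cells and 16.2 in GFP-(GR)50 replicate 2, and none listed with GFP-(GP)10. The DDX27 intron, in a gene for an RNA helicase, was listed with 10 reads with GFP-(GP)10 alone.

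Transposon-typed loci also recurred. A mixed SINE and DNA region in an intron of ATXN2, an RNA-binding protein linked to ALS, had the same lower coordinate in all 3 lists, 111553559 on chromosome 12. It had 17.1 reads in untransfected cells, 10 with GFP-(GP)10 and 10.5 in GFP-(GR)50 replicate 2. A LINE in an intron of STAU2 and of the overlapping AC022826.2 had 16.0, 8.5 and 9.25 reads in that order. A SINE in an intron of TIAM1, an activator of the small GTPase Rac, had 14.2, 8.66 and 5.59, and has a simple repeat annotated opposite. An LTR without a gene on chromosome 10 (93854415 to 93854471) had 18.4, 7.2 and 6. At each of these 4 loci untransfected cells had the most unscaled reads, and those of GFP-(GP)10 and GFP-(GR)50 replicate 2 lay closer to each other. Per read of kept regions GFP-(GP)10 was highest at 17 of the 18 loci in all lists of experiment 2, so this closeness is one of unscaled reads alone.

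Outside genes, a simple repeat on chromosome 1 (42709142 to 42709191 in GFP-(GR)50 replicate 2) had 25 reads in untransfected cells and 17.3 in GFP-(GR)50 replicate 2, and none listed with GFP-(GP)10. The highest DNA-type member of the controls, on chromosome 4 (82119718 to 82119774), had 33.2 reads in untransfected cells and 7 with GFP-(GP)10, and none listed for GFP-(GR)50 replicate 2. The highest DNA-type member of a GFP-(GR)50 list, elsewhere on chromosome 4 and with a simple repeat annotated opposite, had 8.57 reads against 7.83 in untransfected cells. The highest LTR member of a GFP-(GR)50 list, on chromosome 6, had 7.5 against 11.8. All DNA and LTR members of the GFP-(GR)50 lists were under 10 reads.

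At the 54 loci shared with untransfected cells, GFP-(GR)50 replicate 2 had fewer reads at 45 and more at 9. The median ratio of its reads to untransfected reads was 0.604, with a range from 0.214 to 1.77. Per read of kept regions the median ratio was 0.938 and GFP-(GR)50 was higher at 21 of the 54. Per listed read, rRNA included, it was 0.101 and GFP-(GR)50 was higher at 0 of them. At the 18 loci shared with GFP-(GP)10 GFP-(GR)50 replicate 2 had more reads at 13, and the median ratio per read of kept regions was 0.338. On every scale the GFP-(GR)50 median was below untransfected cells, by an amount that depends on the total, and against GFP-(GP)10 the order turned with the total.

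**Figure D3:**
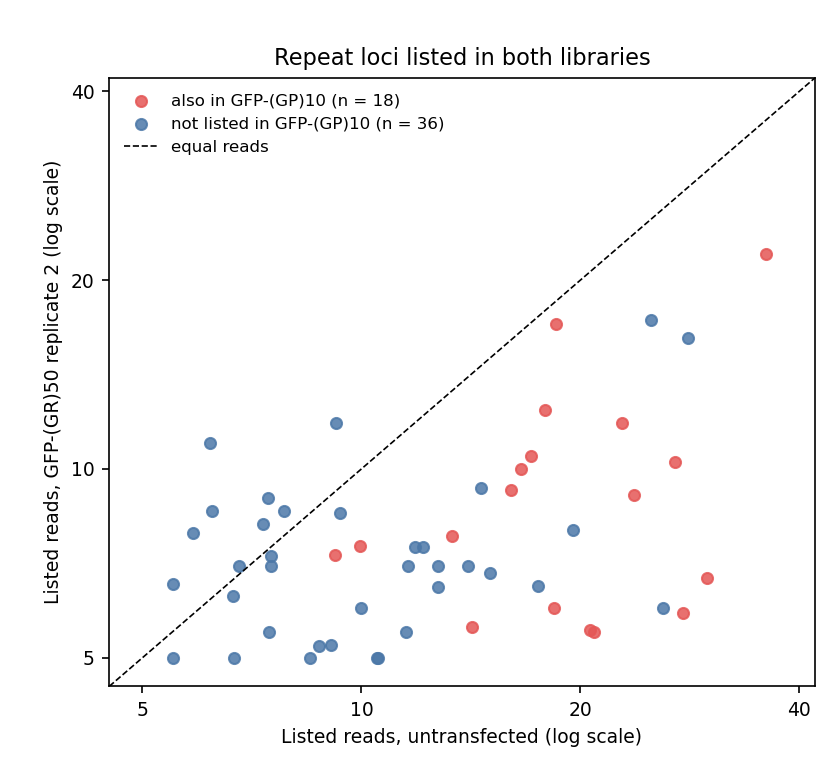
Listed reads at the 54 repeat loci found in both the untransfected list (horizontal) and GFP-(GR)50 replicate 2 (vertical), both on log scales, coloured by whether GFP-(GP)10 lists the locus too. Most points, 45, lie below the dashed line of equal reads.

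The edges of shared regions recurred closely. Between GFP-(GR)50 replicate 2 and untransfected cells the starts were the same at 15 of 54 loci and within 3 bp at 41, and the ends within 3 bp at 35. Median gaps were 1.5 bp at the start and 2 bp at the end. Gaps were not measured for other kept regions, so whether this is particular to members was not tested. Shared regions were mostly plus-strand simple repeats (46 of 54 hold one), and 23 lay opposite a SINE.

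The 66 members found in GFP-(GR)50 replicate 2 alone were shallower, with a median of 5.25 reads against 7.13 in the 54 shared ones, and 6 of them had at least 10 reads. By type, 11 of 12 LINE members and 8 of 11 SINE members had no control region, against 40 of 83 simple repeats, where 72.1% of all kept regions had none. They lay opposite a SINE in 10 of 66 cases against 23 of 54, and had a same-strand gene in 37 against 20. A region near the minimum of 5 reads is easily missed in another list, and how much of this difference comes from depth was not tested.

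The deepest of these lay in an intron of NADSYN1, the last enzyme of NAD synthesis, with 20 reads that all map to one place (chromosome 11, 71473450 to 71473473). A region opposite AFF3 had 15 reads, one opposite SLIT3 had 14, and an intron of GNAS, the stimulatory G-protein alpha subunit, had 14. An X-chromosome region opposite AC112493.1 had 12 reads, and an intron of SAT1, an enzyme of polyamine breakdown, had 10.5. All 6 are simple repeats without a SINE opposite, and all but NADSYN1 were named after their values were seen. The highest SINE member of a GFP-(GR)50 list, in an intron of EGLN1, an oxygen-sensing prolyl hydroxylase, had 7 reads and no control region.

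Some of these regions were narrow. In GFP-(GR)50 replicate 2, 11 of 120 members (9.17%) were at most 30 bp wide, a limit set after seeing the data, and all 11 lacked a control region. So did all 17 other kept regions of that width in the list. They included NADSYN1 at 23 bp, SLIT3 at 22 bp, ANO1 at 26 bp and SDK1 at 20 bp, the last pair with 9 reads each and named after their values were seen. Such widths were found in 2 of 324 members in untransfected cells and 1 of 44 with GFP-(GP)10, and the 17 regions outside repeats were 3.07% of the 553 in GFP-(GR)50 replicate 2. All 7 members of experiment 1 were also 23 to 30 bp wide. The other kept regions there had medians of 59 bp in GFP and 74 bp in GFP-(GR)50 replicate 1. Of those other regions, 27 of 377 (7.16%) in GFP and 11 of 62 (17.7%) in GFP-(GR)50 replicate 1 were at most 30 bp wide.

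**Figure D4:**
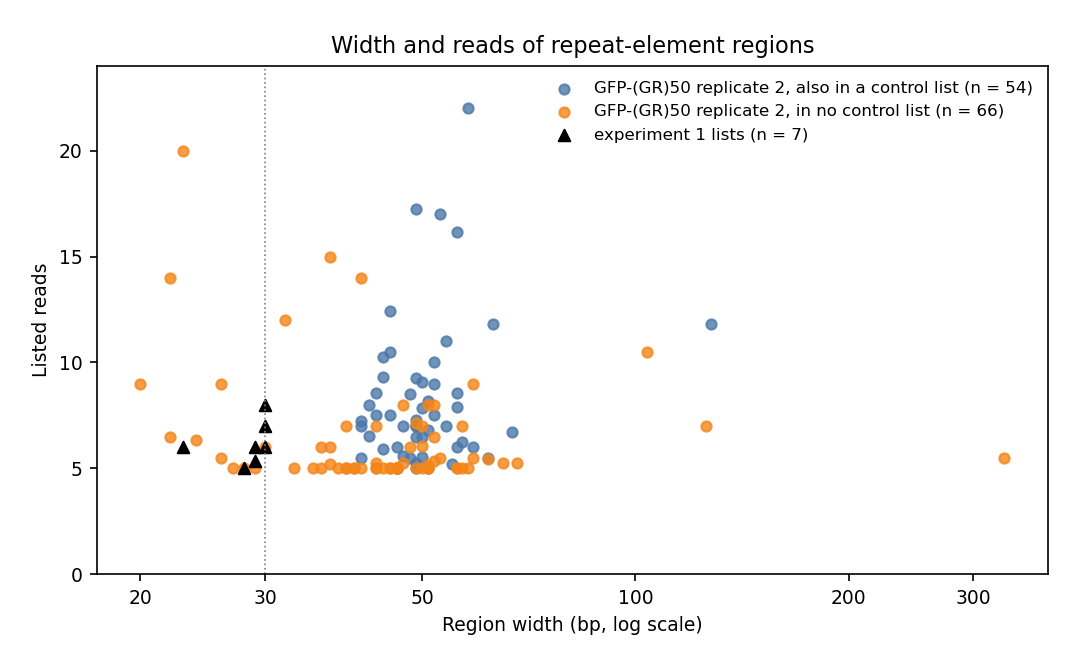
Width (log scale) and listed reads of the 120 repeat-element regions of GFP-(GR)50 replicate 2, split by overlap with a control list, and of the 7 regions of experiment 1 (triangles). The dotted line marks 30 bp. The 11 circles on or left of it have no control region, and shared regions gather near 50 bp.

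The experiment 1 members can be named in full. In GFP, simple repeats lay in introns of RAB3GAP1 (8 reads), CSPP1 (7 reads) and PDLIM5 (5.33 reads) and in the lncRNA AC007786.4 (6 reads). LINE regions lay in an intron of FAM13A (6 reads) and outside genes on chromosome 14 (5 reads). In GFP-(GR)50 replicate 1 the single member was a LINE in an intron of DGKH, a diacylglycerol kinase, with 6 reads. None exceeded 8 reads.

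NEAT1, the lncRNA scaffold of paraspeckles, was also named after its values were seen. It held a simple-repeat member of 26 reads in untransfected cells, 148 bp wide. In GFP-(GR)50 replicate 2 the same place had 6 reads over 46 bp, and a SINE region of 5 reads lay upstream on the same RNA.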

How the data were processed

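CLIP-Seq region lists of 5 HEK-293 libraries were used. The submitters' processing notes name featureCounts 2.0.2, bedtools 2.30.0, UMI-tools 1.1.2, Novoalign 4.03.03 and builds GRCh38.p13 and hg38, without roles. How regions were called is not stated in those notes or the headers. Per the file headers, one deposited column is a count of reads with a single mapped position (6 values in GFP-(GR)50 replicate 2 are not whole, taken as an expected count). The other is an expected count with multimapping reads scaled by the authors, here "reads". Neither is scaled to depth.

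The exclusions described at the start of the report were applied, and each kept region was given its deposited same-strand class, with repeat elements split into 8 types. Shares were compared within experiments by two-sided Fisher's exact tests (SciPy 1.17.1) with Benjamini-Hochberg adjustment, over 3 comparisons or over all 57 class tests, at 0.05. Intervals of differences are Newcombe's. Overlap needs 1 bp on one strand. Tests were checked on simulated data. A test by repeat name was not run, since the names are not analysed here. Named regions are the 5 with most reads of each list and the highest of each type among GFP-(GR)50 and among control lists. Others are marked as named after their values were seen, or are members shared by the 3 lists of experiment 2, all members of experiment 1, or members with a RefSeq sequence. Members, lists and tests were chosen with earlier results of these data known. RefSeq symbols came from GRCh38.p14.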

Additional observations from a re-analysis of the deposited data

How the results depend on the processing

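Of 79 tested differences recomputed, 58 did not turn direction or cross the threshold, 1 of them at exactly 0. Another 16 turned direction, 4 lost their call and 1 gained one without turning. Some of the 16 also passed where the main setting did not, as given below. The lower share of repeat regions in GFP-(GR)50 replicate 2 than in untransfected cells passed under every setting listed at the outset except all controls pooled (-2.13 points, adjusted exact p = 0.256). That pool mixes the experiments. The lower share failed without simple repeats (-0.524 points), a setting added after seeing the data. Its other values ran from -33.3 points, with 63 top regions from each list, to -6.85 points with the controls of experiment 2 pooled. Against GFP-(GP)10 the small difference turned to -1.30 points with at least 10 reads, -0.230 with at least 5 reads that map to one place, -11.1 with the same number of top regions, -6.85 with the pooled controls of experiment 2, -2.13 with all controls pooled and -1.89 on the plus strand alone. Of these, only the pooled controls of experiment 2 passed (adjusted exact p = 0.000560). That pool of 1491 regions holds the 1233 of untransfected cells. Each pooled setting is the same test as the one given for untransfected cells, counted again among the 79. The pooled values therefore do not show a difference from GFP-(GP)10 alone. Against GFP the difference of replicate 1 turned to -0.0868 with regions merged within 1 kb, -0.267 without the exclusions and -18.4 with all controls pooled (adjusted exact p = 8.59e-05), which mixes the experiments.

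By type, LINE turned to -0.985 points against untransfected cells with at least 10 reads, and to -1.59 against GFP-(GP)10 at the same number of top regions, as did SINE at -1.59. SINE turned to -1.48 against untransfected cells with at least 10 reads and to -0.763 without opposite-strand annotation. Simple repeats against GFP-(GP)10 turned to 0.741 points with at least 10 reads and 2.70 without opposite-strand annotation. None of these reversals by type passed. The simple-repeat call against untransfected cells was lost with all controls pooled (-2.93 points, adjusted exact p = 0.186) and as a share of members alone (-7.07 points, adjusted exact p = 0.762). Without opposite-strand annotation, simple repeats with another type also passed there (-4.07 points, adjusted exact p = 0.0420). Against the pooled controls of experiment 2 in place of GFP-(GP)10 alone, simple repeats passed (-6.58 points, adjusted exact p = 0.000678). For replicate 1 against all controls pooled, simple repeats passed too (-15.3 points, adjusted exact p = 0.000535). The mean share over GFP-(GR)50 libraries ran from 1.59% to 17.8% when either replicate was left out. No paired analysis was possible because each control has 1 library, so no pair of groups shares 2 replicate numbers. With at least 10 reads in both lists, 8 of 17 members of GFP-(GR)50 replicate 2 had no untransfected region (71.9% of all 135 kept regions) and 15 of 17 none of GFP-(GP)10 (88.1%). Depth limits all lists, since the lowest listed value is 5 reads.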
